A study of Drosophila melanogaster with 2 samples.

Results

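The 6 conventional actin genes of Drosophila melanogaster, taken as a fixed list, were examined for binding of Meics, a zinc-finger protein, among 13945 protein-coding genes on the 6 chromosome arms. Chromatin immunoprecipitation and sequencing (ChIP-seq) had been done with an anti-GFP antibody on whole mixed-sex embryos of 0 to 24 hours, from a transgenic line with GFP at the C-terminal end of Meics. There was 1 group of 2 biological replicates, numbered 1 and 3, and no control library was analysed here. Embryos of all ages in that span were collected together, so a summit cannot be placed in a cell type or a stage, and bound cells cannot be told apart from a higher occupancy per cell. The deposited lists on the dm6 build were 30000 regions for each replicate, 30000 for both together (pooled), and 7689 that passed a threshold on the irreproducible discovery rate (IDR). The IDR rests on how alike regions rank in both libraries. The 7689 are the strongest regions of the pooled list, so membership amounts to a cut on pooled signal value. It does not show that each region was found in both replicates. Each region has the authors' signal value, which was used only to rank and describe regions within a list. Read depth is unknown.

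Of the actin genes, Act5C (FBgn0000042, X from 5900861 to 5905399) and Act42A (FBgn0000043, 2R from 6013910 to 6015689) are called cytoplasmic. Act57B (FBgn0000044, 2R from 20944021 to 20946431), Act79B (FBgn0000045, 3L from 21985210 to 21987190), Act87E (FBgn0000046, 3R from 13425983 to 13428375) and Act88F (FBgn0000047, 3R from 15439969 to 15442177) are the muscle actins. All 6 code for 376 residues. Act42A is on the minus strand and the others are on the plus strand. Act5C and Act87E have 2 annotated transcription start sites (TSSs), 1121 bp and 464 bp apart, and the other members have 1.

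Actin polymerises into filaments that give cells their shape, carry myosin motors and form the contractile ring of dividing cells. In sarcomeres, the contractile units of muscle, actin makes the thin filaments. Insects code for cytoplasmic and muscle forms in separate genes. In flies, the products of Act5C and Act42A are made in most cells, those of Act57B and Act87E are major actins of larval body-wall muscle, and those of Act79B and Act88F serve mainly adult muscles, with Act88F in the indirect flight muscle. The proteins are nearly the same, and each gene has its own promoter.

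The windows of the IDR-thresholded summits upstream of the first Act5C start, in the gap before the gene, and on each side of Act87E are shown first, because they are the strongest next to these genes (plus strand of dm6, 101 bp, sequence from the RefSeq copy of the assembly). Capitals mark the 11 bases centred on the summit.
Act5C, 655 bp upstream of the first TSS, chrX:5900156-5900256: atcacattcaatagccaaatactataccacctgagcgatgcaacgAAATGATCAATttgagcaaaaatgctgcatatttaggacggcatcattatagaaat
Act5C, 447 bp upstream of the first TSS, chrX:5900364-5900464: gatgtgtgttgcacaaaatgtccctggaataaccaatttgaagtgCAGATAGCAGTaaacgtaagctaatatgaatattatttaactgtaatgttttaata
Act87E, 407 bp upstream of the first TSS, chr3R:13425526-13425626: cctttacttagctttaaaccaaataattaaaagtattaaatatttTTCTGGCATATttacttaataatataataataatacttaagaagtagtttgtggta
Act87E, 130 bp past the end of the gene, chr3R:13428455-13428555: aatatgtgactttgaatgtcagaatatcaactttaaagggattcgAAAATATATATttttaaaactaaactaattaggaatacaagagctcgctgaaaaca

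The start regions show how the promoters of a gene with a strong summit (Act5C), a weaker one (Act87E) and none (Act79B and Act88F) read, from 200 bases before the TSS to the first 30 bases of the transcript. The IDR-thresholded summits of Act5C and Act87E lie outside these windows. Capitals mark TATAAA, the CArG box of the serum response factor (SRF) and the site of the muscle factor Mef2, each searched on both strands. At the first Act5C start, TATAAA matches overlap on the 2 strands.
Act5C, first TSS, chrX:5900661-5900890: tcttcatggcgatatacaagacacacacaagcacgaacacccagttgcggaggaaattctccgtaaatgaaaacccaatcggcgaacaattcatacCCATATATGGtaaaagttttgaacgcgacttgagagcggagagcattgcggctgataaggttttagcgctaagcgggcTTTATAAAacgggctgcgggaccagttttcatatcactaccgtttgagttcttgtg
Act5C, second TSS, chrX:5901782-5902011: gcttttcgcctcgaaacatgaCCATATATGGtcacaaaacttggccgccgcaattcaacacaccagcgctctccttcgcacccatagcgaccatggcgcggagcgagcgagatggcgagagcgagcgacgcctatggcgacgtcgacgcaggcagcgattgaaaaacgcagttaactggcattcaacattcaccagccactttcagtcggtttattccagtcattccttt
Act87E, first TSS, chr3R:13425783-13426012: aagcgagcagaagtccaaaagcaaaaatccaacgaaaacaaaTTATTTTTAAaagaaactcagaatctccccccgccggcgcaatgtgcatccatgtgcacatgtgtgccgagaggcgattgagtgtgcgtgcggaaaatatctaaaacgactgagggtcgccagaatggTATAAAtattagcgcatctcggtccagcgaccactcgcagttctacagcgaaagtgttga
Act79B, chr3L:21985010-21985239: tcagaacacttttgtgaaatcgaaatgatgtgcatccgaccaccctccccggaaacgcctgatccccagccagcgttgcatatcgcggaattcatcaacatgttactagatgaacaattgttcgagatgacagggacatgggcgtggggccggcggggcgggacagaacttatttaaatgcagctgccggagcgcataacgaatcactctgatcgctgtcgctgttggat
Act88F, chr3R:15439769-15439998: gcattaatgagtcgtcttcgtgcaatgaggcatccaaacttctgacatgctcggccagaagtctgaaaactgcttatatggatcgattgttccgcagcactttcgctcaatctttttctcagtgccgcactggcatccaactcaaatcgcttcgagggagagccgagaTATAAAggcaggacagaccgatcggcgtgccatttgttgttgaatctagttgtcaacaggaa

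Meics-GFP summits lay at the promoters of 2 of the 6 actin genes, 1 of each class. In the IDR-thresholded list, Act5C among the 2 cytoplasmic genes and Act87E among the 4 muscle genes carried one no more than 500 bp from a TSS. Act42A, Act57B, Act79B and Act88F had none. A summit was present at 26.1% of all coding genes (3645 of 13945, Wilson 95% interval 25.4 to 26.9, which covers counting error only and treats neighbouring genes as independent), so 2 of 6 is near the background. None of the 6 has a coding TSS on the other strand within 500 bp upstream, and among the 10130 coding genes without one the share was 19.0%. The members with a summit were also the members with 2 TSSs. A summit was present at 44.2% of the 3699 coding genes with 2 or more TSSs and at 19.6% of the 10246 with 1, and the part of the number of TSSs in the actin result was not tested. The classes were not compared by a test, because the genes are relatives read in the same libraries and not replicates.

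**Figure D1:**
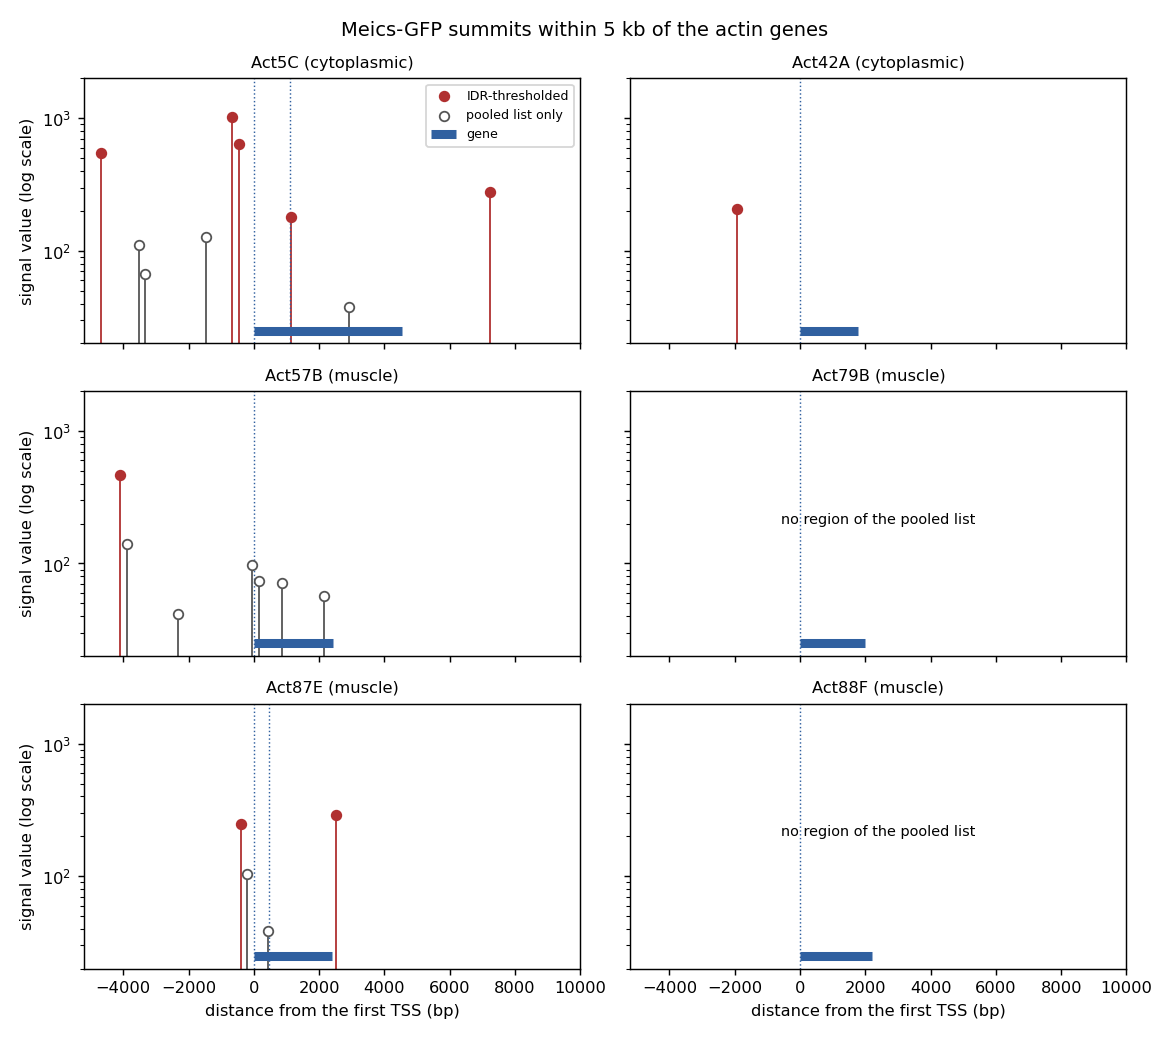
Signal value (log scale) of each Meics-GFP summit of the pooled list, by its distance in bp from the first TSS, for summits within 5 kb of each actin gene. Red points also passed the IDR threshold, open points did not, blue bars are the genes and dotted lines their TSSs; Act5C has 5 red points, Act42A 1, Act57B 1 and Act87E 2, and Act79B and Act88F have no point.

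The strongest summit within 5 kb of any actin gene lay near Act5C, the main cytoplasmic actin gene. The 5 IDR-thresholded summits within 5 kb of it had signal values between 180.7 and 1026.2, where the median of the list was 262.0. The strongest (1026.2, rank 516 of 7689) lay 655 bp upstream of the first TSS, just outside the 500 bp window. The next (638.0, rank 1131) lay 447 bp upstream, just inside it. Both belong to 1 interval on X from 5900000 to 5900521. With sonicated fragments of 200 to 800 bp, summits this close may come from the same fragments, so they need not be separate sites.

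That interval sits in the gap of 871 bp between Act5C and lncRNA:CR45668, a non-coding gene read in the other direction. The strongest summit was 217 bp upstream of the TSS of the non-coding gene and the next was 425 bp upstream of it, so both lay nearer to that start than to the Act5C start. Position alone does not assign them to either gene.

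Each replicate list held both summits. The summit 655 bp upstream had a signal value of 453.5 in replicate 1 (rank 488 of 30000) and 566.0 in replicate 3 (rank 571), at the same base in both lists. The summit 447 bp upstream had 265.2 in replicate 1 (rank 1136) and 369.2 in replicate 3 (rank 1172). As a share of the list ranked at or above it, that is 3.79% and 3.91%, or 3.85% ± 0.0849 (SD, n = 2). Both replicates therefore put it among the strong regions.

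The second Act5C start had its own, weaker summit. It lay 30 bp downstream of that TSS, in an Act5C exon, on X from 5901782 to 5902241, and its signal value was 180.7 (rank 5986 of 7689). It had 60.9 in replicate 1 (rank 7761) and 120.9 in replicate 3 (rank 5391). Its rank varied more between replicates than that of the upstream summit, at 21.9% ± 5.59 of the list (SD, n = 2). In replicate 1 its rank lay below the 7689 strongest regions.

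The remaining IDR-thresholded summits around Act5C lay near other transcripts. One (545.4, rank 1413) was in an intron of lncRNA:CR45668, 4678 bp upstream of Act5C. The other (280.0, rank 3556) was 2692 bp past the end of Act5C and 44 bp upstream of the TSS of CG12236. Neither was within 500 bp of an actin TSS.

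Act42A, the other cytoplasmic actin gene, differs from Act5C by 2 of 376 residues but its promoter lacked a summit past the IDR threshold. The nearest one (205.3, rank 5169) was 1925 bp upstream, on 2R from 6017384 to 6017843. It lay 125 bp upstream of the TSS of Pngl, a neighbour read in the other direction that codes for a peptide N-glycanase-like protein. That summit had 90.2 in replicate 1 (rank 4920) and 115.0 in replicate 3 (rank 5707). Within 500 bp of the Act42A start, only replicate 3 held a region, 93 bp downstream of the TSS, at rank 21613 of 30000 with a signal value of 32.0. The pooled list and replicate 1 held none there.

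Act87E, a muscle actin gene, had a summit on each side. The upstream summit (248.8, rank 4115 of 7689) lay 407 bp before the first TSS, on 3R from 13425346 to 13425805. It had 108.2 in replicate 1 (rank 3981 of 30000) and 146.9 in replicate 3 (rank 4240), which is 13.7% ± 0.566 of the list (SD, n = 2). A second, weaker region lay between it and the first TSS in both replicates, at 226 bp (64.9, rank 7229) in replicate 1 and 229 bp (95.9, rank 7036) in replicate 3. In the pooled list its summit was 201 bp upstream at rank 10924, below the IDR threshold.

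The downstream summit of Act87E was slightly stronger (288.6, rank 3423). It lay 130 bp past the end of the gene, on 3R from 13428436 to 13428584, in the 491 bp that separate Act87E from the 3′ end of yrt, a gene read towards it. It had 109.9 in replicate 1 (rank 3912) and 176.7 in replicate 3 (rank 3355), at 12.1% ± 1.27 of the list (SD, n = 2). A non-coding gene read on the other strand, lncRNA:CR45591, overlaps the first start of Act87E. Both upstream summits lay outside it, between genes, and the nearest TSS of any annotated gene was that of Act87E.

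Act57B, the actin gene known as a direct target of Mef2 in embryonic muscle, had a strong summit only far upstream. That summit (466.6, rank 1761 of 7689) lay 4089 bp before the TSS, on 2R from 20939819 to 20940047, with no nearer TSS of any annotated gene. It had 193.3 in replicate 1 (rank 1833) and 270.4 in replicate 3 (rank 1817), at 6.08% ± 0.0354 of the list (SD, n = 2). At the promoter itself, the pooled list held weak regions 45 bp upstream (97.8, rank 11567 of 30000) and 157 bp downstream (73.7, rank 15340). The strongest promoter region was at rank 13050 in replicate 1 and at rank 10287 in replicate 3, or 38.9% ± 6.51 of the list (SD, n = 2). All of these promoter regions were below the IDR threshold.

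Act79B and Act88F, the genes for adult muscle actins, had no region of any of the 4 lists within 5 kb. This was so at 9.90% of all coding genes (1381 of 13945). For Act79B the nearest summit to the TSS was 30354 bp away in the IDR-thresholded list, 5542 bp in the pooled list, 5516 bp in replicate 1 and 11381 bp in replicate 3. For Act88F the distances were 20857, 11929, 6909 and 11888 bp in the same lists. The lowest listed region had a signal value of 19.5 in replicate 1 and 22.4 in replicate 3. The peak caller is not named, so it is not known whether a region missing from a list of 30000 was weaker than that. Such a region may still hold some Meics-GFP.

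**Figure D2:**
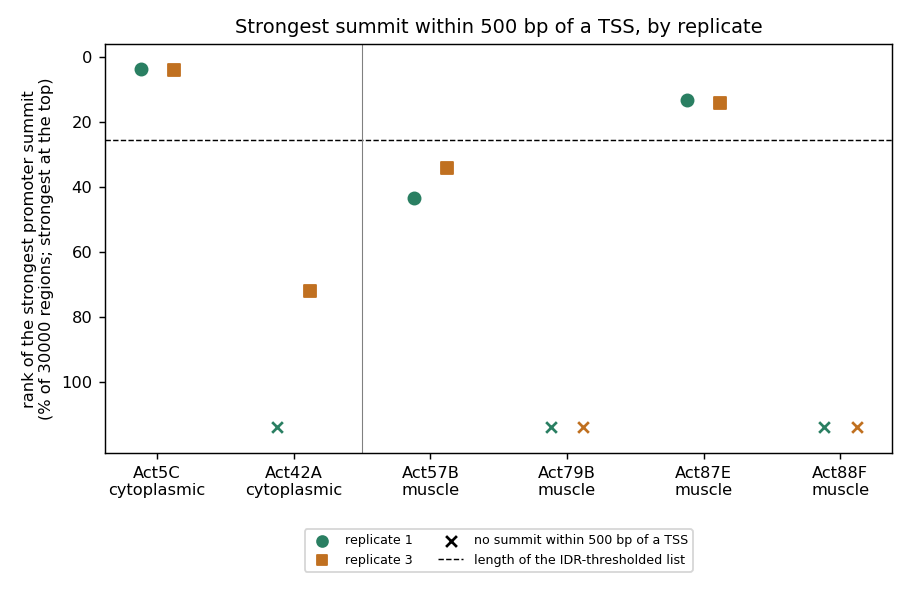
Rank of the strongest Meics-GFP summit within 500 bp of a TSS of each actin gene in each replicate list, as a percentage of 30000 regions, with strong summits at the top. Crosses mark genes with no such summit; Act5C is at 3.79% and 3.91%, Act87E at 13.3% and 14.1% and Act57B at 43.5% and 34.3% in replicates 1 and 3, and the dashed line is the length of the IDR-thresholded list.

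Ordered by the strongest summit at the promoter, Act5C came first, then Act87E, then Act57B, and the replicates did not overlap between these neighbours. The Act5C signal was 2.45 times that of Act87E in replicate 1 and 2.51 times in replicate 3. That Act5C summit is the one 447 bp upstream, which lay nearer to the start of lncRNA:CR45668. The summit 30 bp downstream of the second Act5C start was weaker than the Act87E summit in both replicates. It had 60.9 against 108.2 in replicate 1 and 120.9 against 146.9 in replicate 3, so the first place depends on the upstream summit. The Act87E signal was 2.81 times that of Act57B in replicate 1 and 2.16 times in replicate 3. Act42A followed with a region in 1 replicate, and Act79B and Act88F could not be ordered. The order by the strongest summit mixes the classes. Its first member is cytoplasmic, the next 2 are muscle genes and the second cytoplasmic gene follows them.

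The count of actin promoters with a region grew when the IDR threshold was dropped, as it did for all genes. In the pooled list it was 1 of 2 cytoplasmic and 2 of 4 muscle genes, against 46.2% of all coding genes. In the replicate 1 list it was 1 of 2 and 2 of 4, against 45.9%. In the replicate 3 list it was 2 of 2 and 2 of 4, against 48.5%. The added genes were Act57B and, in replicate 3, Act42A.

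Within 5 kb of the gene, both cytoplasmic genes and 2 of 4 muscle genes had a summit in each list. The corresponding share of all coding genes was 59.7% in the IDR-thresholded list, 82.8% in the pooled list, 86.3% in replicate 1 and 82.9% in replicate 3. The same genes, Act5C, Act42A, Act57B and Act87E, carried the summits in all 4 lists. Act5C, the longest member at 4539 bp, had the most regions, with 13 in replicate 1 and 12 in replicate 3. Most of these lay outside the gene, many of them in or just upstream of lncRNA:CR45668. The part of gene length was not tested.

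The actin proteins were more alike than the DNA that codes for them. The proteins were between 95.2% and 99.5% identical over the 15 pairs, and the coding sequences between 84.0% and 91.8%. Of the 31-base words in the coding exons, between 81.4% (Act87E) and 98.4% (Act42A) occurred only once on the 6 arms. Within 500 bp of the TSSs the share was 98.6% at Act87E and 99.6% at Act79B, and at Act5C, Act42A, Act57B and Act88F every such word occurred once. Some reads from the coding exons can therefore match more than 1 place, while few or no repeated words lay near the TSSs. The read length is not given in the sources used here.

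The promoters carried different core elements. In the window from 250 bp before to 50 bp after each of the 8 actin TSSs, TATAAA was found at 4, the first starts of Act5C and Act87E and the starts of Act57B and Act88F, against 42.2% of 19253 coding TSSs. Its first base lay between positions -32 and -24. The CArG box, the site of SRF, which drives actin genes in many animals, was found at both Act5C starts with identical letters, as the printed start regions show, and at none of the other 6. It was in 1.31% of coding start windows. The Mef2 site was at Act57B and at both Act87E starts, against 13.2%. That pattern is made mostly of A and T. The window at the second Act87E start had a GC content of 23.7%, against a median of 39.3% over coding start windows. The part of base composition was not tested. The M1BP motif GGTCACACT, a promoter element of broadly expressed genes, was at Act42A alone, against 5.23%.

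The other elements did not separate the actin genes. CGATA, a BEAF-32 site, was at 4 of 8 starts (45.7% of coding TSSs), and GAGAG, bound by the GAGA factor, at 5 of 8 (33.1%). The initiator words TCAGT and TCATT were at 7 and 6 of 8 (52.1% and 57.3%). TATCGATA, the DREF element, which contains CGATA, and GTGACGAA and GTAACGAA were at none (7.98%, 0.857% and 0.836%). A match is a description of letters and was not tested as a site.

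The summits themselves held few of these words. Among the 9 IDR-thresholded summit windows near the actin genes, TATAAA was in 1, at the Pngl side of Act42A, against 22.1% of all 7689 windows. A Mef2 site was in 1, at the distal Act57B summit, starting at position -14 from it, against 6.53%. TCAGT was in 3 and TCATT in 2, against 17.8% and 28.6%. None held CGATA (14.4%), GAGAG (10.4%), GGTCACACT (0.689%), GTGACGAA (1.69%), GTAACGAA (0.988%) or a CArG box (0.65%). The GC content ran from 19.8% at the upstream Act87E summit to 58.4% at the CG12236 start, and the median over the list was 33.7%.

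Genes next to the actin genes in the ranking were named without regard to function. Of 3645 coding genes with a promoter summit, Act5C stood at place 862, between Taf4, a subunit of the general transcription factor TFIID (638.0, rank 1130), and SP2353 (637.7, rank 1132). Act87E stood at place 2420, between CG13743 (248.8, rank 4114) and Fatp3 (248.7, rank 4116). Likeness here is closeness in rank in 1 list over 2 replicates. Taf4 had no region within 500 bp in replicate 1, and SP2353 ranked 1259 in replicate 1 and 1090 in replicate 3.

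Lists of genes whose products work with actin were counted in the same way. Among 36 regulators of actin monomers, filaments and nucleation, 21 had one (58.3%, Wilson interval 42.2 to 72.9), against 26.1% of all coding genes. Their median signal was 311.4, against 342.0 over all coding genes with a summit. The strongest were at Fhos, a formin (1632.5, rank 218), jar, myosin VI (1058.0, rank 493), sqh, the myosin regulatory light chain (891.7, rank 664), and pod1, a coronin-family protein (484.0, rank 1665). The jar summit lay exactly 500 bp upstream, at the edge of the window. Among the Arp2/3 nucleator subunits in this list, Arpc2 had a summit (283.3, rank 3502). Arpc4 had a promoter region in replicate 1 only, and Arpc1, Arpc3A, Arpc3B and Arpc5 had none in any list. Over coding genes the share was 44.2% with 2 or more TSSs and 19.6% with 1. The part of the number of TSSs in the count of regulators was not tested. Without the IDR threshold the count of regulators was 29 of 36 (80.6%), against 46.2% of all coding genes. No set test was made, and these counts are descriptions.

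Among 22 sarcomere genes, 4 had an IDR-thresholded promoter summit (18.2%, interval 7.31 to 38.5, which holds the 26.1% of all coding genes). They were Msp300, a nesprin (1480.4, rank 268), sls, the titin-like protein of fly muscle (749.6, rank 904), Tm1, a tropomyosin (269.1, rank 3743), and Actn, alpha-actinin (179.8, rank 6020). Without the IDR threshold the count was 16 of 22, against 46.2% of all coding genes. The added regions rank below the 7689 strongest of the pooled list by definition, as do those at the Act57B promoter. Examples are Mhc, the muscle myosin heavy chain (rank 9095 of 30000), and Tm2, a tropomyosin (rank 12587).

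Other genes around actin were mixed, where 26.1% of all coding genes had a promoter summit. Of 9 actin-related proteins, 5 had a summit (55.6%, interval 26.7 to 81.1), led by Arp5, part of a chromatin remodeller (623.7), Arp10, part of dynactin (560.1), Arp3, part of the Arp2/3 nucleator (430.3), and Arp53D (253.6). Arp2, the partner of Arp3, had no region at its promoter in any list. Of the 8 subunits of CCT, the chaperonin that folds actin, 3 had one (37.5%, interval 13.7 to 69.4), at CCT3 (493.3), CCT8 (423.7) and CCT5 (226.3). The genes of all 3 transcription factors examined had one, at Mrtf, the SRF coactivator (366.9), bs, the fly SRF (213.4), and Mef2 (145.3, rank 7642 of 7689, near the end of the list).

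**Figure D3:**
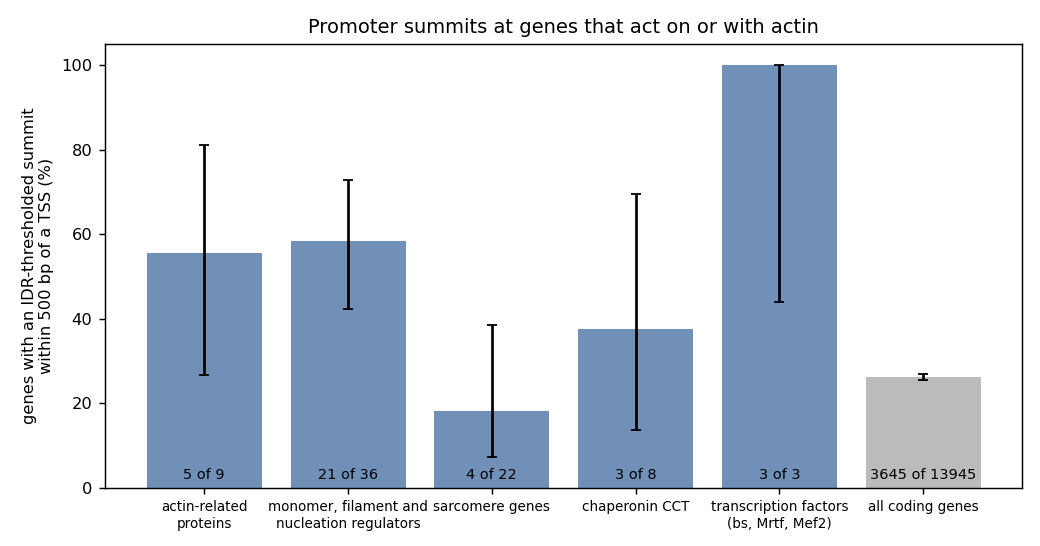
Share of genes (%) in each list with an IDR-thresholded Meics-GFP summit within 500 bp of a TSS; bars are shares, lines are Wilson 95% intervals, and the counts stand in the bars. The regulators of actin are at 58.3% and the sarcomere genes at 18.2%, with all coding genes (grey) at 26.1%. In the pooled list, which is not drawn, the shares are 80.6%, 72.7% and 46.2% in the same order.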

How the data were processed

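The authors deposited peak lists on the dm6 build from 2 replicates, per the labels. Each region has a deposited signal value, a deposited −log10 q-value, which is at its ceiling in 6671 of 7689 regions and was not used, and a summit offset, added here to the start. Aligner, peak caller and IDR cutoff: not given in the sources used here. The dm3 lists were not used. All 7689 IDR-thresholded regions were checked to be the strongest of the pooled list.

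Gene models were those of Ensembl (BDGP 6.54), and sequence from RefSeq's copy of the assembly. A gene counted when a summit lay within 500 bp of any of its TSSs. Ranks run by signal value within a list, and SDs are over 2 replicates. Positions are counted from 1. The code was tested on simulated data.

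The actin genes, the 79 partner genes in 5 lists, the 11 motifs and the naming rule were all chosen with earlier results of these data known. The rule took all members, up to 4 genes per list with the strongest summit, the rank neighbours, and genes with a summit near an actin gene. Unc-89 was not found in the annotation. Mhc, Tm2, Arp2 and the Arpc genes were named after their values were seen. Scripts ran under Python 3.11.15 (matplotlib 3.10.9, scipy 1.17.1, pandas 2.3.3, numpy 2.4.6).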

Additional observations from a re-analysis of the deposited data

How the results depend on the processing

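Act5C had a promoter summit under each alternative tried, though within 200 bp it was the weaker one at the second start (rank 5986). The alternative that gave each summit to the nearest start used coding genes only. The nearer start of lncRNA:CR45668 could therefore not take the upstream summit from Act5C. Act87E lost its summit with a promoter window of 200 bp and with only the IDR-thresholded regions at or above the median signal value, so the count of muscle genes was 0 in both; with the pooled list of 30000 regions it was 2, since Act57B was added. The share of coding genes was 18.6% with 200 bp, 16.5% above the median and 46.2% in the pooled list. With 200 bp, sarcomere genes were at 2, CCT at 1 and the transcription factors at 1. Above the median, actin-related proteins were at 3, regulators at 13 and the transcription factors at 1. In the pooled list, sarcomere genes were at 16 and CCT at 5. These settings count fewer or more summits, and the changes were unequal. From the IDR-thresholded to the pooled list, sarcomere genes went from 4 to 16 and regulators from 21 to 29. The share of all coding genes went from 26.1% to 46.2%. The cause of the unequal changes was not tested.

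In the pooled list the signal percentile of the promoter summit was 96.2 for Act5C and 86.3 for Act87E, against 85.3 and 46.5 in the IDR-thresholded list, because the list is longer. In the 7689 strongest regions of 1 replicate alone, the percentile was between 84.8 and 85.2 for Act5C and between 44.9 and 48.2 for Act87E. The summit position was between -455 and -447 bp for Act5C and between -435 and -428 bp for Act87E. Sarcomere genes were between 4 and 6, and regulators between 21 and 22, where the share of all coding genes was between 26.2% and 26.8%. Of 77 alternative values, 58 stayed within their limits and 19 moved. The limit was a ratio of 1.5 for counts and shares. For percentiles and positions it was the SD between the single-replicate values, which were themselves among the values judged. Act5C at 84.8 against 85.3 was thus called moved, and Act87E at 44.9 and 48.2 against 46.5 was not. These labels say little about stability. A turn of direction was not assessed. No paired analysis was possible because there is 1 group. Read depth and a control library are not known here, which limits statements on absent summits.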
